A study of Rattus norvegicus with 160 samples.

Results

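The amygdala of rat pups was compared between postnatal day 21 (P21) and postnatal day 14 (P14) in pups raised by their own mother. The comparison took every own-mother amygdala array of those ages by its title, which gave 20 of the 160 arrays in the series. All 20 came from male Sprague-Dawley rats of 2 selectively bred lines, named HR and LR in the labels after the line of the biological parents. There were 5 arrays of HR pups with an HR mother at P21, 5 of HR pups with an HR mother at P14, 5 of LR pups with an LR mother at P21 and 5 of LR pups with an LR mother at P14. No pup carried a transgene or received a drug per the labels, the labels do not spell out HR and LR, and the title of the series speaks of rats genetically prone to high anxiety. Brains were frozen and sectioned, stained neighbouring sections guided the dissection of the amygdala, and total RNA was turned into labelled double-stranded DNA for 1-colour NimbleGen arrays. Values are log2 intensities, and the step of a transcript is its mean log2 intensity at P21 minus that at P14, with the standard error (SE) of the fit. A transcript was called when its limma p-value, adjusted by Benjamini-Hochberg over all 22197 amygdala transcripts, was under 0.05.

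The amygdala assigns threat and reward value to what an animal senses, and in rats the weeks before weaning bring its circuits to a working state. Oligodendrocytes wrap axons in myelin during that time, astrocytes mature around synapses, and neurons exchange growth proteins for the machinery of transmitter release, inhibition and fast firing. The NMDA receptor subunit Grin2a is known to gain on Grin2b in this period, the chloride exporter Slc12a5 to make GABA inhibitory, and parvalbumin (Pvalb) to appear in fast-spiking interneurons. The comparison asks which of these programmes moved between the ages in each line, and where the lines differed.

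Some arrays stood apart, so this comes before the results. Replicates 2, 3 and 5 of the HR P14 group held high levels of genes of phagocytes and matrix that the group's other arrays lacked. Gpnmb, a lysosomal glycoprotein of phagocytes, read 6.42, 12.13, 12.43, 5.67 and 11.93 on HR P14 replicates 1 to 5, against 5.46 to 6.70 on the LR P14 arrays. Cd74, which escorts antigen-presenting molecules, read 10.54, 9.36 and 10.71 on those 3 arrays, against 6.64 and 5.51 on the other HR P14 arrays. The fits that use the HR P14 group were therefore also run without those 3 arrays, an alternative chosen after seeing the data. Counts of calls shared between comparisons, of transcripts whose ages did not overlap and of members at an unadjusted p were not recomputed that way. Correlations between pairs of the 20 arrays ran from 0.785 to 0.980, and no arrays were identical. The labels tie no array to a litter, so each p-value reflects how far arrays scattered within groups, which may be technical. That scatter was pooled over all groups of a fit, so a p-value for HR also rests on LR arrays. The median SD of a transcript was 0.48 in HR P21, 0.43 in HR P14, 0.34 in LR P21 and 0.48 in LR P14. Neuronal genes checked the tissue: Snap25 ran from 12.55 to 14.40, Slc17a7 from 11.32 to 14.03 and Gad1 from 7.90 to 10.02 over the 20 arrays. Of 12 listed markers of amygdala neurons 7 were measured, among them Prkcd at 7.55 to 9.80 and Lypd1 at 9.38 to 11.90, and Rspo2, Meis2 and Tshz1 are not analysed here. The files give no detection call, so these values are not set against a background.

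The step passed the test for fewer transcripts in HR pups than in LR pups. In HR pups 558 transcripts passed, 2.51% of those tested, of which 314 rose (1.41%) and 244 fell (1.10%). In LR pups 7548 passed (34.0%), of which 5098 rose (23.0%) and 2450 fell (11.0%). Averaged over both lines, 2707 transcripts passed (12.2%), of which 2079 rose (9.37%) and 628 fell (2.83%). The difference of the steps, HR minus LR, was itself called for 6477 transcripts (29.2%), 2215 with the higher value in HR (9.98%) and 4262 with the lower (19.2%). Counts of gene list members below are to be read against these shares. The split of calls moved with the scaling of the arrays: 56.3% of HR calls were rises as deposited, 63.3% after quantile normalization and 68.1% after centring each array on its median. For LR the shares were 67.5%, 58.5% and 52.9%, for the averaged step 76.8%, 64.7% and 64.1%, and for the difference 34.2%, 44.4% and 50.1% in the same order of scalings. The median difference over all transcripts was −0.18 as deposited, −0.04 after quantile normalization and 0.06 after centring, and differences are read against that shift. Without HR P14 replicates 2, 3 and 5 the HR step had 60 calls and the difference 4221, and an HR-only fit made 7 calls.

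Few transcripts took the same step in both lines. Of 314 HR rises 18 were also LR rises, while 240 were called as falls in LR. Of 244 HR falls 9 were also LR falls, and 126 were LR rises. All P21 arrays lay above all P14 arrays in both lines for 42 transcripts (0.189% of those tested) and below in both lines for 9 (0.0405%). Within HR alone the ages did not overlap for 605 transcripts that were higher at P21 (2.73%) and 454 that were lower (2.05%), and within LR for 3925 (17.7%) and 1751 (7.89%). These counts include HR P14 replicates 2, 3 and 5, without which the HR step had 60 calls, and were not recomputed without them.

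**Figure D1:**
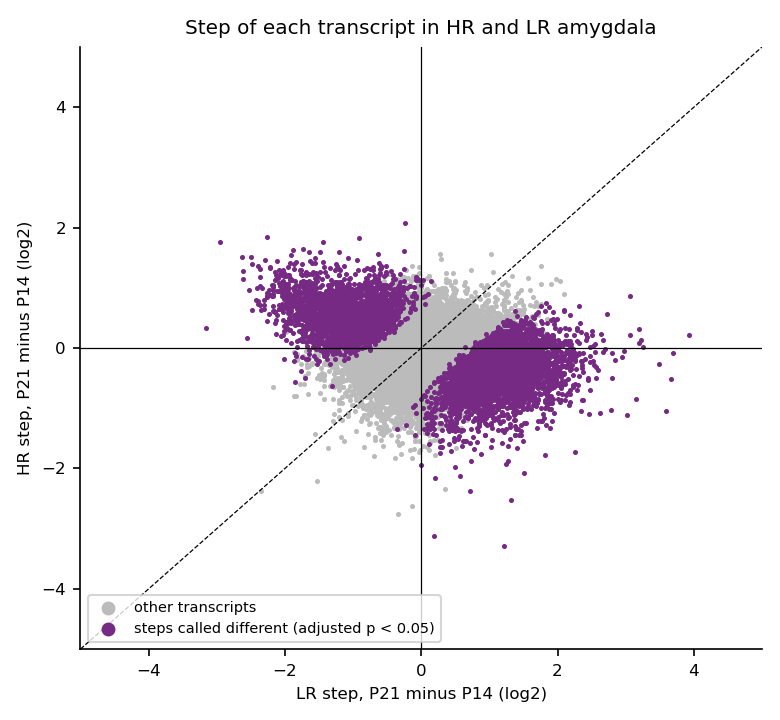
Each point is 1 of the 22197 amygdala transcripts, with its LR step on the x axis and its HR step on the y axis, both as log2 P21 minus P14, and the dashed line marks equal steps. The 6477 transcripts called for a difference (purple) fill the upper left and lower right, and the LR axis is the more widely spread.

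The genes described first were called in the averaged step and had no overlap between the ages in either line. Ddn, the postsynaptic protein dendrin, read 11.82, 12.12, 12.38, 13.66 and 12.55 on HR P21 arrays and 11.48, 11.54, 11.35, 11.45 and 10.97 on HR P14 arrays. In LR it read 12.52, 12.40, 12.68, 12.73 and 12.65 at P21 and 10.08, 10.62, 10.55, 10.80 and 11.05 at P14. The ages did not overlap in either line, and the step was 1.15 in HR (SE 0.27, adjusted p = 0.0256) and 1.98 in LR (SE 0.27, adjusted p = 8.46e-06). Wfs1, an endoplasmic reticulum membrane protein enriched in some amygdala and hippocampal neurons, rose by 1.56 on average (SE 0.19, adjusted p = 4.68e-05), with 1.36 in HR and 1.75 in LR. Kcnab2, a β subunit of voltage-gated potassium channels, rose by 1.29 (SE 0.16, adjusted p = 4.9e-05). Nptxr, the neuronal pentraxin receptor, rose by 1.17 (SE 0.14, adjusted p = 3.2e-05), and Ntsr2, a neurotensin receptor found on astrocytes, rose by 1.06 (SE 0.14, adjusted p = 9.32e-05). Phyhip at 1.35, Fbxl16 at 1.28, Pianp at 1.12, Lypd1 at 1.10 and Chn1 at 1.08 completed the 10 leading rises. Chn1 codes for a GTPase-activating protein that acts on Rac. For Ddn, Wfs1, Kcnab2, Nptxr and Ntsr2 the steps of the lines were not called different, with differences of −0.83 to −0.33. Phyhip at −1.47 (adjusted p = 0.000278), Chn1 at −1.14 (adjusted p = 0.00245) and Fbxl16 at −1.08 (adjusted p = 0.0155) rose more in LR. Without HR P14 replicates 2, 3 and 5 the HR step of Ddn was 1.04 (adjusted p = 0.204) and that of Wfs1 was 1.17 (adjusted p = 0.154), so those HR calls were lost while the averaged steps of 1.51 and 1.46 stayed called.

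With the same rule on the falling side, 5 named genes were found. Dpysl3, a collapsin response mediator that shapes growing axons, read 9.02, 9.13, 9.79, 9.72 and 10.38 on HR P21 arrays and 11.16, 11.37, 11.17, 11.45 and 11.17 on HR P14 arrays. LR arrays read 9.81, 9.52, 9.59, 9.97 and 9.68 at P21 and 10.75, 11.17, 11.64, 10.86 and 11.01 at P14. All 10 P21 arrays lay below all 10 P14 arrays, and the averaged step was −1.51 (SE 0.17, adjusted p = 1.76e-05). Igfbp2, which binds insulin-like growth factors, fell to between 8.92 and 9.72 on HR P21 arrays, against 10.23 to 11.89 on HR P14 arrays, and to between 9.26 and 10.34 on LR P21 arrays, against 10.41 to 11.19 on LR P14 arrays. Its averaged step was −1.34 (SE 0.22, adjusted p = 0.000531), and the HR step of −1.55 lost its call without the 3 arrays (−1.04, adjusted p = 0.138). Ybx1, a cold-shock domain RNA-binding protein, had a step of −0.97 (SE 0.12, adjusted p = 4.88e-05) and had a difference of 0.68 (adjusted p = 0.0342), a call lost without the 3 arrays (0.62, adjusted p = 0.155). Fkbp1b, an immunophilin of calcium release channels, had the smallest step of the 5, −0.40 (SE 0.12, adjusted p = 0.0247), which was −0.44 (adjusted p = 0.0639) without those arrays.

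Ttr, which carries thyroid hormone and is made mainly by the choroid plexus, had the largest fall of the 5. It read 7.36, 6.48, 7.08, 6.45 and 5.71 on HR P21 arrays and 9.44, 8.85, 9.04, 8.81 and 8.85 on HR P14 arrays. In LR pups it read 6.26, 5.91, 5.32, 6.41 and 6.38 at P21 and 8.19, 7.95, 8.26, 9.48 and 8.16 at P14. The steps were −2.38 in HR (adjusted p = 0.00074) and −2.35 in LR (adjusted p = 7.12e-06), with an SE of 0.31 each, and the HR step remained called without the 3 arrays at −2.51 (adjusted p = 0.0270). Of 11 measured choroid plexus genes Ttr alone fell in the averaged step, Enpp2, which myelinating cells make as well, alone rose, and the list's median step was −0.16, against 0.01 over all transcripts. The mean of the 11 genes ran from 6.35 to 7.24 on HR P21 arrays, 6.84 to 7.28 on HR P14 arrays, 6.54 to 7.02 on LR P21 arrays and 6.69 to 7.23 on LR P14 arrays. The part that tissue of the choroid plexus takes in the fall of Ttr was not tested.

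**Figure D2:**
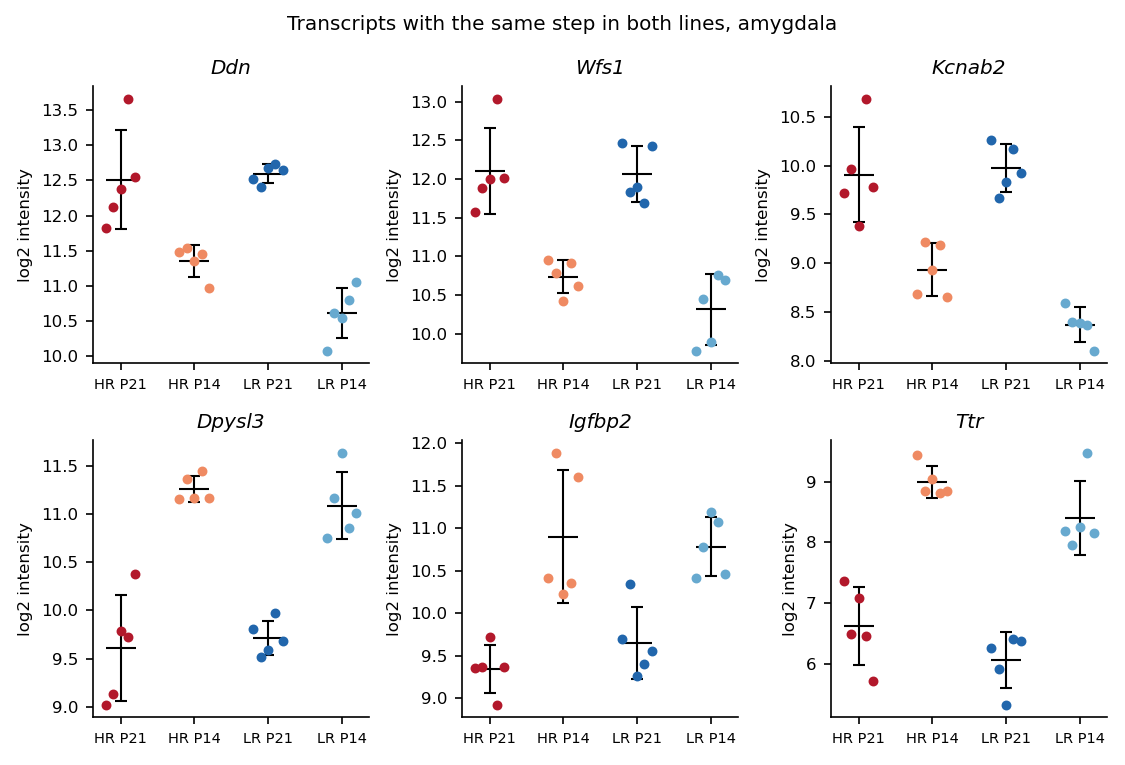
Each panel plots the log2 intensity of 1 gene on the 20 own-mother amygdala arrays, with 1 point per array, the group mean as a bar and the SD over 5 arrays as the error bar. Ddn, Wfs1 and Kcnab2 were higher at P21 in both lines, and Dpysl3, Igfbp2 and Ttr were lower, with no overlap between the ages within a line.

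Myelin genes had no called step in HR pups and the highest median rise of the lists in LR pups. The list held 14 measured genes of compact myelin and of the oligodendrocytes that make it. In HR limma called none of the 14, and 0 passed an unadjusted p under 0.05, with a median step of 0.01, against −0.04 over all transcripts. In LR 13 of them rose, with a median of 2.69, against 0.06 over all transcripts. Of all transcripts 2.51% were called in HR and 23.0% rose in LR. The difference of the steps was called for 12 of 14, all lower in HR, and averaged over the lines 10 of 14 rose. Mbp, myelin basic protein, which compacts the membrane, read 13.42, 13.81, 13.55, 14.03 and 13.80 on HR P21 arrays and 13.29, 13.57, 14.01, 12.74 and 14.53 on HR P14 arrays. On LR arrays it was 14.08, 14.22, 14.05, 14.10 and 14.25 at P21 and 10.60, 11.02, 11.02, 11.15 and 10.97 at P14. The LR P14 arrays were thus the low ones, while the HR groups overlapped. The HR step of Mbp was 0.09 (SE 0.25, adjusted p = 0.896), the LR step 3.19 (SE 0.25, adjusted p = 5.04e-08) and their difference −3.09 (SE 0.36, adjusted p = 2.3e-06). Of its 5 transcripts on the array 4 had LR steps of 3.06 to 3.25, and the other had one of 0.02 (adjusted p = 0.970).

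The other structural myelin genes had the same pattern. Mobp, a basic protein of the major dense line, had an HR step of −0.52 and rose in LR by 3.66 (SE 0.34, adjusted p = 1.89e-07), with a difference of −4.18 (SE 0.48, adjusted p = 2.18e-06). Cldn11, which forms the tight junctions of myelin, rose in LR by 3.70 (SE 0.27, adjusted p = 2.9e-08), with a difference of −3.78 (SE 0.39, adjusted p = 6.33e-07). Mag, an adhesion protein of the inner myelin layer, rose in LR by 2.66 and had a difference of −2.73 (SE 0.34, adjusted p = 4.82e-06). Tf, the iron carrier that oligodendrocytes make, rose in LR by 3.02, with a difference of −4.15 (SE 0.82, adjusted p = 0.00065) that was −2.25 (adjusted p = 0.0119) without HR P14 replicates 2, 3 and 5. Sox10, a transcription factor of the oligodendrocyte lineage, rose in LR by 1.85, with a difference of −2.09 (adjusted p = 9.67e-05).

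The HR P14 arrays carried high myelin levels, and this did not rest on the 3 arrays alone. The mean of the 14 myelin genes was 9.81, 10.17, 9.99, 10.38 and 10.10 on HR P21 arrays and 9.30, 10.04, 10.44, 9.61 and 11.22 on HR P14 arrays. In LR it was 10.73, 11.01, 10.62, 10.62 and 10.71 at P21 and 7.92, 8.10, 7.94, 8.34 and 8.38 at P14. The lowest HR P14 array, replicate 1, thus lay above every LR P14 array. With replicates 2, 3 and 5 left out the difference was still called for 12 of 14 genes, with a median of −2.05, and the HR median was 0.66 with no call. The part of tissue composition in this was not tested, and in bulk samples fewer cells of a type and less RNA per cell cannot be told apart.

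The promoters of 2 myelin genes are shown because members of the list moved together and SOX family factors, Sox10 among them, bind a short core that is common near myelin genes. Each window runs from 250 bases before to 50 bases after the gene's start in RefSeq on GRCr8, on the gene's strand, and capitals mark the core ACAAAG or its other strand CTTTGT. Mobp lies at chr8:128746982-128747281 on the + strand and holds the core 8 times, and Cnp, which codes for an enzyme of oligodendrocyte membranes, at chr10:86011254-86011553 on the + strand and holds it 1 time.
Mobp: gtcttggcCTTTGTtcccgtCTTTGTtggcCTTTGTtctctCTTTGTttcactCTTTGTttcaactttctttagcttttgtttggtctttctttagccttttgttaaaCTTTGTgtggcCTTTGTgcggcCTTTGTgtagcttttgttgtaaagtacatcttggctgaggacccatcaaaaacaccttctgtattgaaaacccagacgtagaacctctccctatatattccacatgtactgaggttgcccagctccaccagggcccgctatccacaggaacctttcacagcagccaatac
Cnp: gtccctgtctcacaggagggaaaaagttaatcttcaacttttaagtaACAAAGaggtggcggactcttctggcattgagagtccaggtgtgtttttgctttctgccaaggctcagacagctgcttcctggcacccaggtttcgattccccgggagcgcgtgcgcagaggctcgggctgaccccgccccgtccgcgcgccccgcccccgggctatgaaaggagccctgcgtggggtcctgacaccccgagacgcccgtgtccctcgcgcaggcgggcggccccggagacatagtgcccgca
Of the 14 measured myelin genes 11 had an entry in the table, with 12 promoters, and 5 of these (41.7%) held the core, against 6284 of all 33469 promoters (18.8%). A match describes the letters of the window and is not a binding site. The HR step of Cnp was 0.13 (adjusted p = 0.849), and in LR it rose by 2.42 (SE 0.25, adjusted p = 5.7e-07).

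Most measured genes of synapses and channels rose in LR pups, where 23.0% of all transcripts rose. Few were called in HR pups, as among all transcripts, of which 1.41% rose and 1.10% fell in HR. Of 20 measured genes of synaptic vesicles and exocytosis limma called none in HR, where 4 were lower at an unadjusted p under 0.05, and 16 rose in LR. The difference was called for 13, all lower in HR. Syn1, synapsin, which tethers vesicles, read 11.60, 11.66, 12.34, 12.53 and 12.10 on HR P21 arrays and 12.18, 12.27, 12.23, 12.54 and 12.08 on HR P14 arrays. In LR it read 12.85, 13.27, 13.10, 12.87 and 13.21 at P21 and 10.48, 10.66, 10.53, 10.67 and 11.15 at P14. The LR ages did not overlap, all HR arrays lay between them, and the difference of the steps was −2.58 (SE 0.30, adjusted p = 2.26e-06). Nsf, the ATPase that recycles fusion complexes, rose in LR by 2.31, Sv2b, a vesicle protein, by 1.94 and Syp, synaptophysin, by 1.49, with differences of −2.22, −1.75 and −1.33.

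The receiving side of the synapse followed the same division. Of 20 postsynaptic density genes 1 fell in HR and 17 rose in LR, with 13 differences called, all lower in HR. Dlgap1, a scaffold, rose in LR by 2.66 (SE 0.24, adjusted p = 1.79e-07) and Camk2a, the kinase of synaptic plasticity, by 1.80. Nlgn3, a neuroligin, moved in opposite ways: it read 10.85, 11.27, 11.53, 11.61 and 11.56 on HR P21 arrays and 12.41, 12.19, 12.24, 12.23 and 12.09 on HR P14 arrays, a fall of 0.87 on the log2 scale (adjusted p = 0.0243). LR arrays read 12.45, 12.25, 12.65, 12.48 and 12.68 at P21 and 9.71, 10.17, 10.31, 9.86 and 10.57 at P14, a rise of 2.38 (adjusted p = 8.21e-08). Neither line overlapped between the ages, and the HR call was lost without the 3 arrays.

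Among 16 GABA receptor genes 1 fell in HR, 12 rose in LR, and 11 differences were called, all lower in HR. Gabrb2, a β subunit, had an HR step of 0.07 and rose in LR by 1.92 (SE 0.23, adjusted p = 2.1e-06). In LR the B receptor subunit Gabbr1 rose by 1.87 and the inhibitory neuroligin Nlgn2 by 2.14. Slc12a5, the chloride exporter KCC2, had an HR step of 0.31 (adjusted p = 0.503) and rose in LR by 1.60 (adjusted p = 1.08e-05), with a difference of −1.28 (adjusted p = 0.00367). Slc12a2, the chloride importer NKCC1, also rose in LR, by 1.24 (adjusted p = 0.00437). Slc6a11, a GABA transporter of astrocytes, had an HR step of −1.05 (adjusted p = 0.0375), which lost its call without the 3 HR P14 arrays, and rose in LR by 1.41.

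Both main NMDA receptor partners rose in LR. Grin2a had an HR step of 0.12 and rose in LR by 2.11 (SE 0.29, adjusted p = 1.1e-05). Grin2b had an HR step of −0.23 and rose in LR by 2.47 (SE 0.28, adjusted p = 1.35e-06). Their shared subunit Grin1 rose in LR by 1.46, and Grin2d, a subunit of the young brain, fell in LR by 1.11 (adjusted p = 0.0014). Of 12 AMPA and kainate receptor genes 1 fell in HR and 7 rose in LR. Of 28 potassium channel genes 1 rose and 2 fell in HR, while 18 rose in LR, and of 24 sodium, calcium and HCN channel genes 1 fell in HR, while 14 rose and 1 fell in LR. Kcnc2, a channel of fast-spiking neurons, rose in LR by 1.75, with a difference of −1.30 that was −1.08 (adjusted p = 0.0501) without the 3 HR P14 arrays, and Kcnc1, of the same family, rose in LR by 0.83 (adjusted p = 0.0037).

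**Figure D3:**
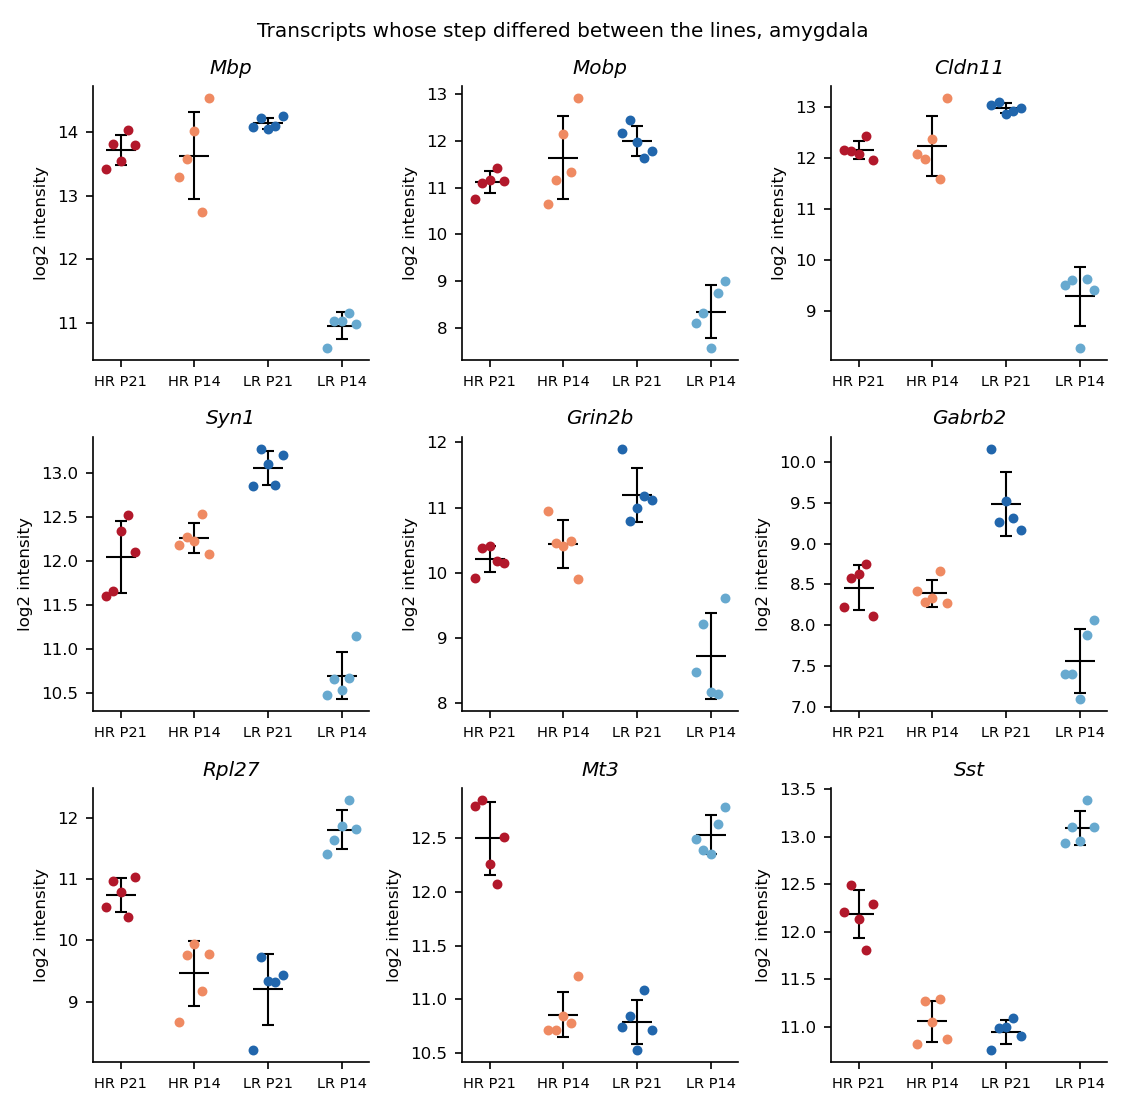
Each panel plots the log2 intensity of 1 gene on the 20 own-mother amygdala arrays, with points for arrays, bars for group means and error bars for the SD over 5 arrays. For Mbp, Mobp, Cldn11, Syn1, Grin2b and Gabrb2 the LR P14 arrays are the lowest group, and for Rpl27, Mt3 and Sst the HR P21 and LR P14 arrays are the high groups.

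Many astrocyte and energy genes rose in LR as well, where 23.0% of all transcripts rose, while 2.51% of all transcripts were called in HR. Of 15 measured astrocyte genes limma called none in HR, where 1 was higher and 1 lower at an unadjusted p under 0.05, and 11 rose in LR with a median step of 1.35. The difference was called for 11 of the 15, all lower in HR. Gja1, the gap junction protein of astrocytes, rose in LR by 2.84 (SE 0.23, adjusted p = 5.64e-08), with a difference of −3.04 (SE 0.33, adjusted p = 1.09e-06). Gjb6, its partner in mature astrocytes, rose in LR by 2.98, Ndrg2 by 2.16 and the glutamate transporter Slc1a3 by 2.09. Of 18 glycolysis genes limma called none in HR, where 2 were higher and 1 lower at an unadjusted p under 0.05, and 12 rose in LR, with Pkm, pyruvate kinase, at 1.29. Slc2a1, the glucose transporter of the barrier and of astrocytes, rose in LR by 2.09 and Slc2a3, that of neurons, by 2.01. Of 16 cholesterol synthesis genes 10 rose and 2 fell in LR.

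Some genes of immature neurons and axon growth fell. Of 20 measured members 2 fell in HR, 8 fell and 1 rose in LR, and 7 fell and 1 rose in the averaged step. Fabp7, though on the list, is a fatty acid carrier of radial glia and young astrocytes. It had an HR step of −0.18 and fell in LR by 2.02 on the log2 scale (SE 0.29, adjusted p = 1.36e-05). Gap43, a growth cone protein, fell in LR by 1.57, Tmsb10, an actin-binding peptide, by 1.74, Stmn2 by 1.07 and Stmn1, both destabilisers of microtubules, by 1.23. Dpysl5 fell in HR by 1.34 (SE 0.25, adjusted p = 0.00783), with an LR step of −0.36 (adjusted p = 0.288), and its HR call was lost without the 3 HR P14 arrays. The difference was called higher in HR for 5 members and lower for 5, and the 5 lower ones, Dpysl5 among them, were no longer called after centring the arrays or without the 3 HR P14 arrays. Dcx, a marker of migrating neurons, had an averaged step of −0.47 (adjusted p = 0.159).

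In LR ribosomal protein genes moved against most of the synaptic genes, and in HR some of them rose. Of 53 measured members 13 rose in HR, with a median step of 0.58, and 52 fell in LR, with a median of −1.41. The difference was called for 52, all higher in HR, with a median of 2.06, against −0.18 over all transcripts. Rpl27 read 10.55, 10.97, 10.79, 10.39 and 11.04 on HR P21 arrays and 8.67, 9.77, 9.94, 9.18 and 9.78 on HR P14 arrays. In LR pups it read 8.21, 9.73, 9.34, 9.32 and 9.43 at P21 and 11.42, 11.65, 11.87, 12.29 and 11.83 at P14. The ages did not overlap in either line and ran in opposite directions, with a difference of 3.88 (SE 0.40, adjusted p = 6.92e-07). Rplp1, a stalk protein of the large subunit, had a difference of 3.35 (SE 0.34, adjusted p = 5.99e-07) and Rps24 one of 3.22. Rpl39, a ribosomal gene outside the list, had a difference of 3.76 (SE 0.44, adjusted p = 2.51e-06). Without the 3 HR P14 arrays 52 differences were still called, 7 members rose in HR, and the 25 that fell in the averaged step became 4. That count was 14 without HR P14 replicate 5 alone and 16 without LR P21 replicate 3 alone.

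Other small housekeeping proteins moved with them. Of 30 measured genes of the respiratory chain 11 rose in HR, a count that became 1 without the 3 arrays and 6 or 7 without any 1 of HR P14 replicates 2, 3 and 5 or HR P21 replicates 2 and 5, while 16 fell and 3 rose in LR. Atp5f1e, a small subunit of the central stalk of ATP synthase, had an HR step of 1.46 and an LR step of −2.29, a difference of 3.75 (SE 0.31, adjusted p = 9.21e-08). Cox7a2, of cytochrome c oxidase, had an HR step of 1.5 and an LR step of −1.56. The 3 that rose in LR were Sdha, of succinate dehydrogenase, at 1.78, Ndufs1, of complex I, at 1.60 and Atp5f1a, of the catalytic head of ATP synthase, at 0.95. Of 20 proteasome genes 1 rose in HR and 9 fell in LR, with Psmb3 falling in LR by 1.18. Tmsb15b2, a thymosin, had a difference of 3.67 (SE 0.82, adjusted p = 0.00189) with 1 HR P14 array at 9.10 and the others at 4.73 to 7.31.

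The mean of the 53 ribosomal genes was higher on every HR P21 and LR P14 array than on the HR P14 and LR P21 arrays, whose ranges overlapped. It was 11.90, 12.15, 11.93, 11.86 and 12.11 on HR P21 arrays and 11.08, 11.43, 11.42, 11.31 and 11.58 on HR P14 arrays. In LR it was 10.97, 11.30, 11.05, 11.22 and 11.21 at P21 and 12.43, 12.61, 12.58, 12.69 and 12.72 at P14. The 20 synaptic vesicle genes averaged 11.52 ± 0.09 in HR P21 and 11.65 ± 0.07 in HR P14, and 12.13 ± 0.04 in LR P21 and 10.89 ± 0.14 in LR P14 (SD, n = 5 each). The group highest in ribosomal genes, LR P14, was thus the lowest in synaptic vesicle genes, and LR P21 was the reverse. The sources used here name no RNA quality, slide or scan date, whose part in these shared shifts was not tested.

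The promoters of 2 ribosomal genes, Rplp1 of the list and Rpl39, are shown because the genes moved together and ETS factors are known to bind a short core in many ribosomal promoters. Windows, build and strand rule are as for the myelin genes, and capitals mark CCGGAA or its other strand TTCCGG. Rplp1 lies at chr8:71290823-71291122 on the − strand and holds the core 2 times, and Rpl39 at chrX:121195847-121196146 on the − strand and holds it 1 time.
Rplp1: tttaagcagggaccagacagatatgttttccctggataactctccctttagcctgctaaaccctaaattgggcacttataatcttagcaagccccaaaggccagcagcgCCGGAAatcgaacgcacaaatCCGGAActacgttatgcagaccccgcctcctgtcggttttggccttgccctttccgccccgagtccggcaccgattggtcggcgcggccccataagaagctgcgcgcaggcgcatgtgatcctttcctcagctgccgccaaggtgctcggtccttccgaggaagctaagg
Rpl39: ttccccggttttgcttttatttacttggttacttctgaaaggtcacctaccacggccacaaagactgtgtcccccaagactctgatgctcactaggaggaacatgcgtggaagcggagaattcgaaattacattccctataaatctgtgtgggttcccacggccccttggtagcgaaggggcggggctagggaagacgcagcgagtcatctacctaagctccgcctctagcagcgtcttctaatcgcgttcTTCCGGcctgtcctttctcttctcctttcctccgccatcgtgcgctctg
Of the 53 measured ribosomal genes 42 had a promoter in the table, and 23 of those 42 (54.8%) held the core, against 5004 of all 33469 promoters (15.0%).

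Several abundant neuropeptide and metal-binding genes took opposite steps in the lines with no overlap in either. Sst, somatostatin, read 12.21, 12.49, 12.14, 11.81 and 12.29 on HR P21 arrays and 10.82, 11.27, 11.05, 11.29 and 10.88 on HR P14 arrays. On LR arrays it was 10.76, 10.99, 11.00, 11.10 and 10.91 at P21 and 12.93, 13.10, 12.95, 13.38 and 13.10 at P14. The HR step was 1.13 (SE 0.18, adjusted p = 0.00315), the LR step −2.14 (SE 0.18, adjusted p = 8.21e-08) and the difference 3.27 (SE 0.26, adjusted p = 7.71e-08). Cartpt, a feeding and stress peptide, had an HR step of 1.43 (adjusted p = 0.000971) and an LR step of −1.44 (adjusted p = 1.11e-05). Mt3, the brain metallothionein, read 12.80, 12.85, 12.26, 12.07 and 12.51 on HR P21 arrays and 10.72, 10.72, 10.85, 10.78 and 11.22 on HR P14 arrays. In LR it read 10.74, 10.85, 10.53, 11.09 and 10.72 at P21 and 12.49, 12.39, 12.35, 12.63 and 12.79 at P14, and its difference was 3.38 (SE 0.28, adjusted p = 7.71e-08). Without the 3 arrays Mt3 and Cartpt remained called in HR (1.74 and 1.61, adjusted p = 0.0152 and 0.0195), and Sst did not (1.13, adjusted p = 0.0628). Over all alternatives the HR call held for Mt3 in 28 of 28, for Cartpt in 27 of 28 and for Sst in 26 of 28.

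Interneuron genes did not move as one. Pvalb rose on average by 1.21 (SE 0.18, adjusted p = 0.000225), with 0.96 in HR and 1.47 in LR and a difference of −0.51 that was not called. It read 9.30, 9.38, 8.59, 9.86 and 9.34 on HR P21 arrays and 8.30, 8.05, 8.72, 8.54 and 8.05 on HR P14 arrays, so 1 array of each age overlapped, and the HR call was lost without the 3 arrays. Calb1, calbindin, rose on average by 0.85, and Npy fell by 0.54 on the log2 scale. Of 12 measured interneuron genes 4 rose and 3 fell in the averaged step, and without the 3 HR P14 arrays none of the 3 falls was called, that of Npy having an adjusted p of 0.0567. Acan, a core of perineuronal nets, had an averaged step of −0.10 (adjusted p = 0.837).

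Stress hormone, growth, transmitter and clock genes were read one by one. The glucocorticoid receptor Nr3c1 had an averaged step of 0.48 (SE 0.22, adjusted p = 0.156), while the mineralocorticoid receptor Nr3c2 rose by 0.83 (SE 0.18, adjusted p = 0.00499) and the receptor's co-chaperone Fkbp5 by 0.58 (adjusted p = 0.0417). The call of Fkbp5 held in 7 of 26 alternatives and was lost without the 3 HR P14 arrays (0.68, adjusted p = 0.0587). Crh had an HR step of 0.06 and fell in LR by 1.18 on the log2 scale (adjusted p = 0.0314), a call lost without LR P14 replicate 1 or 2 or LR P21 replicate 4 or 5, and the difference was not called. Oxtr, the oxytocin receptor, was not called in either line, and its difference of 1.48 was (SE 0.43, adjusted p = 0.0123), a call lost without the 3 arrays (1.45, adjusted p = 0.0644). Bdnf at −0.03, Drd2 at −0.02, Bdh1 at −0.05 and Igf2 at −0.26 had averaged steps with adjusted p between 0.587 and 0.965, and the Bdnf receptor Ntrk2 rose by 0.92 (adjusted p = 0.00111). Gabra2 and Top2a are not analysed here. Dnmt3a, a DNA methyltransferase, fell in HR by 0.98 (adjusted p = 0.0175), a call lost without the 3 arrays. Of 11 clock genes Dbp alone rose in HR, by 0.89 (adjusted p = 0.00795), a call also lost without those arrays, while 8 rose in LR, with Bmal1 at 1.64 and Nr1d1 at 1.44. Egr1, an immediate early gene, rose in LR by 2.25 and Nr4a1 by 1.14, with differences of −2.48 and −1.20. Thrb, a thyroid hormone receptor, rose in LR by 1.66, and the chaperone Hsph1 by 1.24. In the averaged step Egr1 rose by 1.01, Thrb by 0.89, Nr1d1 by 0.82, Bmal1 by 0.69, Hsph1 by 0.58, Nr4a1 by 0.53 and Dbp by 0.49, and Dnmt3a fell by 0.55 on the log2 scale. Without the 3 arrays the averaged steps of Thrb, Bmal1, Hsph1 and Nr4a1 were no longer called.

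The largest called rises of the HR step among named genes were Dmrt1, a gonadal transcription factor, at 2.07 (SE 0.30, adjusted p = 0.00136), Rnase1l2 at 1.83 (SE 0.43, adjusted p = 0.0246) and Mt3 at 1.64. Without the 3 arrays the step of Rnase1l2 was 2.41 (adjusted p = 0.0661), so its call was lost. Dmrt1 read 8.75, 8.45, 7.61, 8.27 and 8.04 on HR P21 arrays and 6.60, 6.55, 5.87, 5.50 and 6.27 on HR P14 arrays, and remained called without the 3 arrays (2.18, adjusted p = 0.0344). Its largest falls were Apobec1, an RNA-editing enzyme, at −2.53 (SE 0.55, adjusted p = 0.0184), Ttr at −2.38 and Ncf1, a subunit of the phagocyte oxidase, at −1.97 (SE 0.32, adjusted p = 0.00315). Apobec1 read 8.0, 10.10, 10.14, 6.65 and 11.35 on HR P14 arrays, so its fall rested on replicates 2, 3 and 5, and without them its step was −0.61 (adjusted p = 0.467) and that of Ncf1 −1.46 (adjusted p = 0.114).

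The same 3 arrays carried several of the largest differences between the steps. Ptgds, the prostaglandin D synthase of meninges and oligodendrocytes, had a difference of −4.64 (SE 1.37, adjusted p = 0.0135) that became −1.25 (adjusted p = 0.223) without them, and Gpnmb one of −4.50 (SE 1.39, adjusted p = 0.0178) that became −0.83 (adjusted p = 0.426). Pdpn, a surface glycoprotein of meninges and reactive astrocytes, at −3.97 (adjusted p = 2.24e-05), and Apobec1 at −3.85 (adjusted p = 0.000803), became −2.63 and −1.93 and remained called. Of 13 measured microglial genes limma called none in HR, where 1 was higher and 2 lower at an unadjusted p under 0.05, and 3 rose and 1 fell in LR, with array means of 8.39 to 9.19 in HR P21, 7.94 to 10.16 in HR P14, 8.62 to 8.91 in LR P21 and 8.24 to 8.54 in LR P14. Of 10 meningeal and matrix genes limma called none in HR, where 1 was higher and 8 lower at an unadjusted p under 0.05, and 2 rose in LR, with array means of 7.57 to 8.20 in HR P21, 7.88 to 10.75 in HR P14, 8.05 to 9.27 in LR P21 and 7.37 to 7.86 in LR P14. HR P14 had the widest spread of the 4 groups in both lists, and the part of those cells in the results was not tested. Ctss, a lysosomal protease of microglia, rose in LR by 2.20 (adjusted p = 6.4e-05). Of 9 blood cell genes 2 rose in HR and 2 rose and 2 fell in LR, with Hbb, a globin, at 0.92 in HR and −0.99 in LR, and the HR call of Hbb was lost without the 3 arrays. The mean of the 9 genes ran from 9.96 to 10.51 over the 20 arrays, and the part of blood left in the tissue was not tested. Over all transcripts 23.0% rose and 11.0% fell in LR, and 1.41% rose and 1.10% fell in HR. The counts of LR rises in the microglial, meningeal and blood lists were thus near the share over all transcripts.

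**Figure D4:**
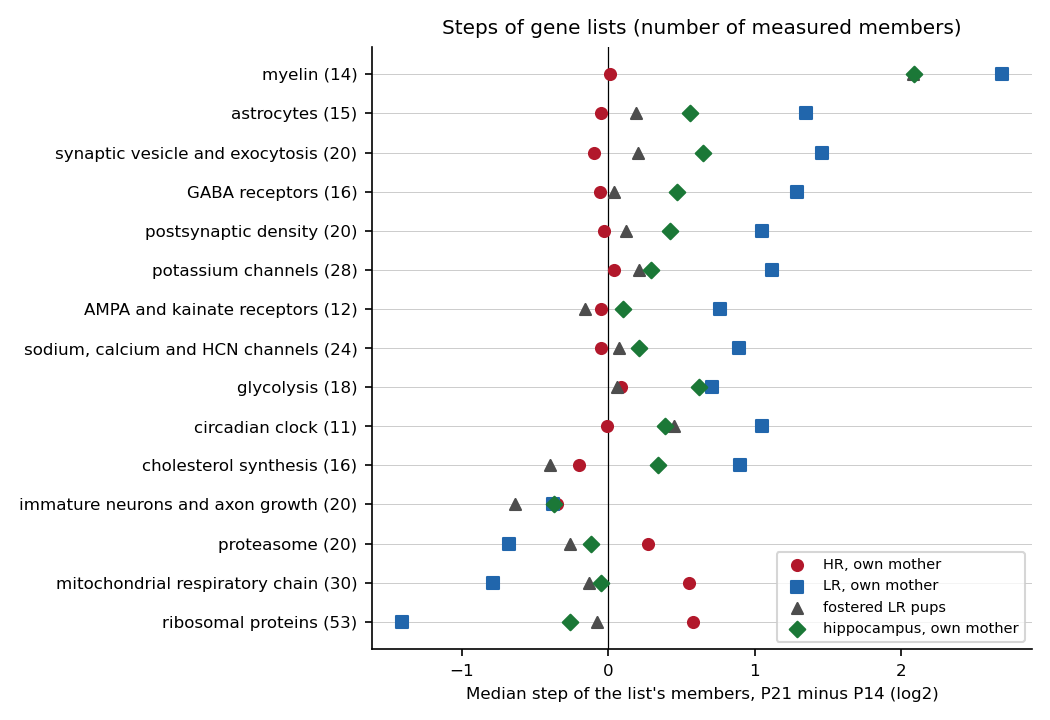
The x axis gives the median step of a list's measured members as log2 P21 minus P14, with the number of members in brackets, for HR and LR own-mother amygdala, for the fostered LR pups' amygdala and for own-mother hippocampus. The LR medians lie farthest from 0 for most of these lists, of the 15 lists drawn the HR median is farthest from 0 for ribosomal genes at 0.58 and respiratory chain genes at 0.55, and the myelin medians are 2.08 in fostered amygdala and 2.09 in hippocampus.

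Fostered LR pups offered the same step on arrays that the comparison above did not use. They were LR pups raised by another LR dam (LR-LR) or by an HR dam (LR-HR), with 5 arrays of each at both ages, 20 in all. Averaged over both kinds of dam 1031 transcripts passed (4.64%), 359 rising (1.62%) and 672 falling (3.03%), and the LR-LR step had 276 calls (1.24%) and the LR-HR step 683 (3.08%). Leaving out 1 array at a time gave 163 to 342 calls for LR-LR, with 163 to 182 without any 1 of LR-LR P21 replicates 3, 4 and 5 or P14 replicates 2, 3 and 5. For LR-HR it gave 343 to 886, with 343 to 445 without LR-HR P21 replicate 4 or any 1 of P14 replicates 2, 3 and 5. Of the 359 rises 204 (56.8%) were also called in the averaged own-mother step, which is 9.81% of its 2079 rises, while 20 (5.57%) were called in the HR step and 249 (69.4%) in the LR step. Of the 672 falls 63 (9.38%) were also called in the averaged own-mother step, 10% of its 628 falls. In the HR step 27 of the 672 were called as falls (4.02%) and in the LR step 113 (16.8%), while 101 were called as LR rises. Of the 359 fostered rises 12 were called as LR falls. Over all transcripts 23.0% rose and 11.0% fell in LR. The own-mother step, averaged over HR and LR pups, differed from the fostered step for 1572 transcripts (7.08%). Of these 1282 had the higher value in own-mother pups (5.78%). Fostered pups were all LR, so line and rearing cannot be told apart in that count. Taken alone, the LR own-mother step differed from the fostered step for 6893 transcripts (31.1%) and the HR step for 951 (4.28%).

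Myelin genes rose in the fostered pups. Of 14 genes 13 rose, with a median of 2.08, and Mbp read 13.99, 14.20, 14.13, 14.37 and 14.34 on LR-LR P21 arrays and 11.47, 11.59, 11.66, 12.10 and 11.63 on LR-LR P14 arrays. In LR-HR pups it read 13.20, 13.65, 14.26, 13.61 and 13.96 at P21 and 11.46, 11.68, 11.71, 11.78 and 11.94 at P14. The mean of the 14 genes was 9.30 to 11.22 on own-mother HR P14 arrays, all above the 8.34 to 8.57 of LR-LR P14 arrays and the 8.40 to 8.92 of LR-HR P14 arrays. The HR step differed from the fostered one for 951 transcripts (4.28%), 613 without HR P21 replicate 2, and the LR step for 6893 (31.1%). The HR step of Mbp minus the fostered step was −2.18 (adjusted p = 1.99e-06), and that of Mobp was −3.43 (adjusted p = 5.38e-08).

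Growth genes fell in the fostered pups, and few ribosomal and synaptic vesicle genes were called. Of the 20 listed genes of immature neurons and axon growth 14 fell. Among them were Dpysl3, by 2.51 on the log2 scale (SE 0.16, adjusted p = 8.85e-10), the glial gene Fabp7, by 1.97, and Gap43, by 1.09. Pvalb rose by 1.72 (SE 0.11, adjusted p = 8.85e-10). Of the 53 ribosomal genes 6 fell, with a median of −0.08, and 3 of the 20 synaptic vesicle genes rose, with a median of 0.20. The ribosomal mean hardly differed between ages within a kind of dam, at 11.14 ± 0.07 and 11.25 ± 0.12 in LR-LR P21 and P14 and at 12.29 ± 0.17 and 12.38 ± 0.06 in LR-HR P21 and P14 (SD, n = 5 each), but was higher in LR-HR pups at both ages. Sst had steps of −0.03 in LR-LR and −0.21 in LR-HR pups (adjusted p = 0.968 and 0.491), and the LR own-mother step lay below the fostered one by 2.02 on the log2 scale (adjusted p = 4.36e-10). Mt3 had steps of 1.64 in HR and −1.74 in LR own-mother pups and rose in fostered pups by 0.99 (SE 0.14, adjusted p = 0.000216). Ttr fell in LR-HR pups by 2.39 on the log2 scale (adjusted p = 0.00101) and had a step of −0.33 in LR-LR pups (adjusted p = 0.797).

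**Figure D5:**
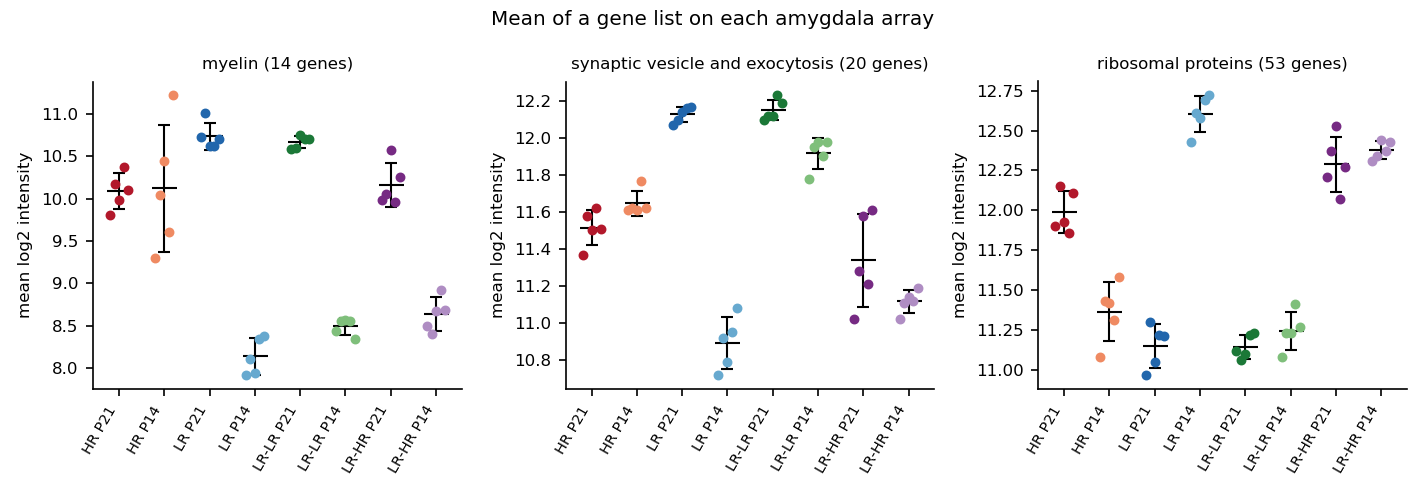
Each point is the mean log2 intensity of a list's members on 1 amygdala array, for 14 myelin, 20 synaptic vesicle and 53 ribosomal genes, with bars for the mean and SD over the 5 arrays of a group. Myelin means were low in every P14 group except HR P14, and the ribosomal means of HR P21, LR P14 and both LR-HR groups lay above those of the other groups.

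The hippocampus of own-mother pups was measured on its own 20 arrays, normalized apart from the amygdala. Averaged over the lines 2731 of 25897 transcripts passed there (10.5%), 1208 rising (4.66%) and 1523 falling (5.88%), with 2632 in HR (10.2%), 187 in LR (0.722%) and 36 differences between the lines called (0.139%). Of the 1192 hippocampal rises with an amygdala value 688 (57.7%) were also called as rises in the averaged amygdala step, 33.1% of its 2079. Falls were shared less often. Of the 1512 hippocampal falls with an amygdala value 118 (7.8%) were also called as falls in the averaged amygdala step, 18.8% of the falls called there. Myelin rose in both regions: 12 of 14 genes rose in hippocampus, with a median of 2.09. Mbp read 13.83, 13.78, 14.09, 14.03 and 13.99 on HR hippocampal P21 arrays and 9.38, 9.63, 10.14, 9.69 and 10.97 on HR hippocampal P14 arrays. In LR hippocampus it read 13.09, 12.92, 13.19, 13.04 and 11.09 at P21 and 9.66, 10.09, 10.06, 9.69 and 9.71 at P14. Mbp thus rose in HR hippocampus by 3.98 (adjusted p = 2.32e-08), where the HR amygdala had a step of 0.09, and LR hippocampal P21 replicate 5 stood apart from its group. Without that array the hippocampal step had 2866 averaged calls and 3765 in HR, and 213 differences between the lines were called. Over all omissions of 1 array, HR had 1675 to 3765 calls, with 1675 to 1735 without HR P21 replicate 4 or HR P14 replicate 1 or 2, and LR had 76 to 249, with 76 to 92 without any 1 of the LR P14 arrays and 112 without LR P21 replicate 4. The differences ran from 6, without LR P14 replicate 2 or 4, to 297, without HR P14 replicate 5.

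Each region's step was taken within its own table, so that only the steps were set against each other. Averaged over the lines, they differed for 309 of 22192 transcripts (1.39%), 288 of them higher in amygdala (1.30%). Ttr differed by −2.70 (adjusted p = 6.45e-07), with a fall in amygdala and a hippocampal step of 0.33 (adjusted p = 0.360). Mbp differed by −1.76 (adjusted p = 0.000291) and Mobp by −1.5 (adjusted p = 0.0172), both rising more in hippocampus when averaged over the lines. The lines did not share this order. The myelin list had a median step of 0.01 in HR amygdala and 2.6 in HR hippocampus, but 2.69 in LR amygdala and 1.39 in LR hippocampus. Ddn had a difference of −0.02 (adjusted p = 0.991) and Dpysl3 one of −0.13 (adjusted p = 0.919), with hippocampal steps of 1.58 and −1.39. Of 53 ribosomal genes 25 fell in the averaged amygdala step and 3 in hippocampus. The regions differed for none of the 53 by limma's test, with 1 lower in amygdala at an unadjusted p under 0.05. That test used steps averaged over the lines, which ran in opposite directions in amygdala. The ribosomal median was 0.58 in HR amygdala and −0.43 in HR hippocampus, and −1.41 in LR amygdala and −0.14 in LR hippocampus. The regions were not tested against each other within a line.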

How the data were processed

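The authors deposited linear intensity values per transcript, made by robust multi-array averaging (RMA) per the submitters' processing notes, with the version and probe filters not given in the sources used here, and with amygdala and hippocampus tabled apart. The log2 of each intensity was taken without adding a pseudocount, and low values were kept. Of 25903 identifiers 9506 matched a RefSeq gene of the rat, and the amygdala table held 22197 transcripts, 7994 of them named. Where several transcripts matched a gene, the one with the highest mean stood for it. Steps were fitted in limma 3.58.1 (R 4.3.3) with 1 mean per group on the 20 own-mother amygdala arrays, and the averaged step and the difference of steps were contrasts of that fit. Fostered pups and hippocampus had fits on their own arrays, and differences between own-mother and fostered pups came from a fit over all of those arrays. P-values were adjusted by Benjamini-Hochberg over all transcripts of the table and called at 0.05. Array medians ran from 179.2 to 234.8 intensity units in the own-mother amygdala groups.

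The genes named were the largest called steps and differences with a symbol, the members of each list with the smallest p, and a panel of developmental genes. Members and the 50 gene lists (801 genes, 634 measured) were chosen with earlier results of these data known, and some genes, Cnp among them, were named after their values were seen. Some genes that the rule takes are not reported here. Alternatives were quantile normalization, centring on array medians, variance settings, filters, other sets of arrays, a replicate block and fits without 1 array. The fit was tested on simulated data. Promoter windows came from RefSeq on GRCr8, and Rpl27 had no entry.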

Additional observations from a re-analysis of the deposited data

Results flagged for a closer look

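The steps of the lines were tested against each other for every named gene, and the difference, HR minus LR, passed limma's test at an adjusted p under 0.05 for 83 of them. All values are log2 differences of the P21 minus P14 step. Without HR P14 replicates 2, 3 and 5 the call was lost for 17 of the 83, namely Ptgds, Gpnmb, Cd74, Prkcd, Ndufs1, Slc12a2, Gad1, Dpysl5, Kcnc2, Nr1d1, Pkm, Dnmt3a, Ybx1, Oxtr, Grin2d, Stmn2 and Dbp. Among genes of myelin and oligodendrocytes the difference was −4.18 for Mobp, −4.15 for Tf, −3.78 for Cldn11, −3.09 for Mbp, −2.73 for Mag, −2.72 for Enpp2, −2.29 for Cnp and −2.09 for Sox10. Among genes of transmitter release it was −2.58 for Syn1, −2.22 for Nsf, −1.75 for Sv2b, −1.58 for Syt1, −1.33 for Syp and −1.03 for Snap25. Among other genes of excitatory synapses it was −3.25 for Nlgn3, −2.70 for Grin2b, −2.53 for Dlgap1, −1.98 for Grin2a, −1.97 for Slc17a7, −1.70 for Camk2a and −1.22 for Grin1. Among genes of inhibition and chloride transport it was −2.46 for Slc6a11, −2.42 for Nlgn2, −1.85 for Gabrb2, −1.81 for Gabbr1, −1.28 for Slc12a5, −1.21 for Slc12a2 and −0.99 for Gad1. Among channel genes and markers of amygdala cells it was −1.49 for Prkcd and −1.30 for Kcnc2. The amygdala markers did not move as one: of 7 measured, the difference was called lower in HR for 3 and higher for 2, and 3 rose and 3 fell in LR. Cartpt and Nr2f2, given below with higher steps in HR, also served as amygdala markers. Among astrocyte, glucose and sterol genes it was −3.04 for Gja1, −3.03 for Gjb6, −2.52 for Slc2a1, −2.22 for Slc2a3, −2.03 for Ndrg2, −2.0 for Slc1a3 and −1.09 for Pkm. Among clock, early response, thyroid and growth factor genes it was −2.48 for Egr1, −1.91 for Bmal1, −1.54 for Thrb, −1.25 for Nr1d1, −1.24 for Ntrk2 and −1.20 for Nr4a1. For the chaperone Hsph1 it was −1.31, and for the DNA methyltransferase Dnmt3a −0.87. Among genes high on HR P14 replicates 2, 3 and 5 it was −4.64 for Ptgds, −4.50 for Gpnmb, −3.97 for Pdpn, −3.85 for Apobec1, −3.59 for Cd74 and −2.56 for Ctss. Other genes with a lower step in HR were led by Ncf1, with −2.47 for Ncf1, −1.77 for Sdha, −1.56 for Ndufs1, −1.47 for Phyhip, −1.14 for Chn1, −1.08 for Fbxl16, −0.98 for Atp5f1a and −0.98 for Dpysl5. The step was higher in HR for ribosomal genes, with 3.88 for Rpl27, 3.76 for Rpl39, 3.35 for Rplp1 and 3.22 for Rps24. It was also higher for genes of energy metabolism, protein turnover and blood, with 3.75 for Atp5f1e, 3.06 for Cox7a2, 1.92 for Hbb and 1.5 for Psmb3. Among neuropeptide, receptor and metal-binding genes it was 3.38 for Mt3, 3.27 for Sst, 2.86 for Cartpt, 1.48 for Oxtr and 1.06 for Grin2d. Among growth genes of young cells it was 1.95 for Tmsb10, 1.91 for Gap43, 1.84 for Fabp7, 1.64 for Stmn1 and 0.90 for Stmn2. The remaining values were 3.67 for Tmsb15b2, 2.74 for Rnase1l2, 2.31 for Dmrt1, 1.43 for Nr2f2, 0.78 for Dbp and 0.68 for Ybx1.

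Single arrays also lay far from the other 4 of their group, judged by the gap to the nearest array over the group's range. This happened for 29 of 432 gene and group pairs (6.71%), and chance alone gives about 1 in 20. In HR P21, replicate 1 lay apart for Gabbr1 at 11.77, replicate 3 for Rnase1l2 at 7.76 and Dnmt3a at 10.94 and replicate 4 for Sv2b at 11.88 and Snap25 at 14.40. In HR P14, replicate 1 lay apart for Rpl39 at 7.99, Nr3c1 at 5.40, Slc2a3 at 9.19 and Ndufs1 at 9.26, replicate 2 for Igf2 at 10.60 and replicate 5 for Mt3 at 11.22. In LR P21, replicate 1 lay apart for Rpl27 at 8.21, Rps24 at 7.28, Bdh1 at 9.37, Stmn1 at 10.63, Nr1d1 at 9.85, Bmal1 at 8.30 and Ndufs1 at 10.39 and replicate 2 for Ptgds at 11.29, Tf at 12.09 and Ctss at 11.98. In LR P14, replicate 1 lay apart for Sv2b at 9.65 and Cartpt at 9.82, replicate 3 lay apart for Cldn11 at 8.27, replicate 4 lay apart for Ttr at 9.48, Tmsb15b2 at 6.70 and Fabp7 at 12.54 and replicate 5 for Syn1 at 11.15 and Hsph1 at 11.38. Of the 10 values in LR P21, 7 belonged to replicate 1. These values are log2 intensities.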

How the results depend on the processing

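Counts of called transcripts that moved by over 1.5 times are given here, or beside their values above where 1 array was left out, and the cause was not tested unless the alternative itself used fewer arrays or transcripts. The HR step, with 558 calls, had 7 with HR arrays alone, 60 without HR P14 replicates 2, 3 and 5, 852 with a trended and robust variance, 967 among transcripts above the median mean and 1817 with all 80 amygdala arrays in the fit. The averaged step, with 2707 calls, had 4436 with all 80 arrays. The difference of the steps, with 6477, had 4221 without those 3 arrays, and the fostered step, with 1031, had 1571 among transcripts above the median mean. Above that median the LR-LR step had 424 calls, LR-HR 1354, and in hippocampus LR had 314 and the difference of the lines 66. With a trended and robust variance LR-LR had 427, LR-HR 1087 and the hippocampal difference 21, and with a replicate block LR-HR had 1030, hippocampal LR 453 and the hippocampal difference 92. Leaving out 1 array at a time gave 2059 to 3563 calls for the averaged step, 214 to 682 for HR, 6587 to 7905 for LR, 5838 to 7023 for the difference, 720 to 1169 for the fostered step, 2126 to 3373 for the hippocampus, 271 to 373 for amygdala minus hippocampus and 1084 to 2144 for own mother minus fostered. HR calls moved by over 1.5 times without HR P21 replicate 2 (214), HR P21 replicate 5 (295), HR P14 replicate 2 (263), HR P14 replicate 3 (265), HR P14 replicate 4 (333) or HR P14 replicate 5 (289). No named gene reversed a call under any alternative tried. Without the 3 HR P14 arrays 371 of 432 values of named genes stayed on their side of the threshold, 53 fell short of it and 8 came to pass it. Over the fits without 1 array 8384 of 8640 stayed, 225 fell short and 31 came to pass. In the fit with HR arrays alone 82 of 108 HR steps of named genes stayed and 26 fell short, where 30 had been called. The calls of Ybx1, Pvalb, Pianp, Fkbp5, Kcnc1, Grin2d, Ncf1 and Dnmt3a were among those that moved.

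Replicate numbers are shared by the groups, but deviations of same-numbered arrays correlated at −0.13 to 0.10, with 0 pairs above 0.1 and 3 of 20 arrays closest to their own number. With a replicate block the counts were 2841 averaged, 532 in HR, 7778 in LR, 6732 for the difference, 1394 fostered, 3745 in hippocampus, 364 for amygdala minus hippocampus and 2310 for own mother minus fostered. With 5 arrays a group the number of arrays limits the precision, and the files hold no detection call, slide or scan date, so values near background cannot be marked.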
